A study of Homo sapiens with 9 samples.

Results

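The RNAs described here are 8 noncoding RNAs made by RNA polymerase III: RMRP, RPPH1, RN7SL1, RN7SL2, RNY1, RNY3, RNY4 and VTRNA1-1. They were chosen by name, as short or structured RNAs outside the box H/ACA class that dyskerin binds, and are 8 of the 58425 genes to which transcripts of the series were matched. Nuclear RNA of U2OS cells, a human line from a bone osteosarcoma, was sequenced in 3 groups of 3 libraries. The groups were cells given an siRNA against dyskerin (siDyskerin), an siRNA against GAR1 (siGAR1) or a control siRNA (siControl), each at 15 nM for 48 hours. All 3 groups were thus transfected, and no untransfected cells were among the 9 libraries. Each knockdown stands for transient depletion in 1 cell line, with 3 replicates of it. The p-values set a difference between groups against the spread between replicate libraries. The comparison asks whether loss of these proteins changed RNAs that are not their guides.

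RNA polymerase III makes short, structured RNAs whose genes end in a run of T. RMRP and RPPH1 are the catalytic RNA subunits of RNase MRP, which cleaves precursor ribosomal RNA, and of RNase P, which cuts the leader off precursor tRNAs. RN7SL1 and RN7SL2 encode copies of 7SL, the RNA scaffold of the signal recognition particle that brings nascent secretory proteins to the endoplasmic reticulum. The Y RNAs RNY1, RNY3 and RNY4 bind the Ro60 and La proteins, and VTRNA1-1 is the RNA component of the vault particle. Dyskerin is the pseudouridine synthase of the H/ACA complex and GAR1 is one of its core proteins. The guides of that complex are box H/ACA RNAs, the SNORA RNAs among them, which carry the bases ACA near their 3′ end.

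Each of the 8 genes has 1 annotated transcript. On GRCh38 (GENCODE 44), RMRP lies on the minus strand at chr9:35657754-35658017 (264 nt) and RPPH1 on the minus strand at chr14:20343075-20343407 (333 nt). The 7SL genes lie on the same chromosome, RN7SL1 on the plus strand at chr14:49586580-49586878 (299 nt) and RN7SL2 on the minus strand at chr14:49862550-49862849 (300 nt). RNY4 (plus strand, chr7:148963315-148963410, 96 nt), RNY3 (plus strand, chr7:148983755-148983856, 102 nt) and RNY1 (minus strand, chr7:148987136-148987248, 113 nt) form a cluster of 23934 bases, and VTRNA1-1 is on the plus strand at chr5:140711275-140711373 (99 nt). RN7SL1 sits in an intron of RPS29 on the opposite strand. All of RPPH1 is contained in the single exon of the lncRNA ENSG00000259001 on the same strand, and RN7SL2 overlaps exons of the lncRNA ENSG00000282885. A lncRNA of the newer annotation, ENSG00000292256, also covers VTRNA1-1.

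The 7SL copies are near-identical, so reads from one can fit the other. Whether such a read was divided between the copies, counted in each, given to a single copy or left out is not given in the sources used here. The TPM of either copy, their sum and the family totals may thus hold a read more than once or miss it. When aligned, RN7SL1 and RN7SL2 were 98.3% identical, with an unbroken identical run of 205 bases.

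RNY1, RNY4 and VTRNA1-1 are shown whole because the shortest RNAs had the fewest reads. The sequences are from GENCODE 44 on GRCh38, 5′ to 3′, written as DNA, and capitals mark the closing run of T.
RNY1: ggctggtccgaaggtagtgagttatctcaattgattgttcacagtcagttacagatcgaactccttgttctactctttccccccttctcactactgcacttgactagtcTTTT
RNY4: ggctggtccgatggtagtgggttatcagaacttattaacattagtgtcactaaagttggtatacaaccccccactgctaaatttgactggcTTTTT
VTRNA1-1: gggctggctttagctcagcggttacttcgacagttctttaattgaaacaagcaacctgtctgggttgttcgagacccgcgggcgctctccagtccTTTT
The Y RNAs were 63.7 to 72.6% identical to each other. A run of TTTT began at or within a few bases of the annotated end in 8 of 8 members, within a searched window of the last 5 bases and the 25 after them, whereas 25.4% of 42177 other transcripts on these chromosomes hold TTTT in that window. The letters TATA stood in the 40 bases before the start of 5 of the 8 (RMRP, RPPH1, RNY3, RNY4 and VTRNA1-1), against 6.92% of those transcripts. The transcript strand was searched in both cases. The letters GTTCGANNC, a form of the internal B box of polymerase III genes, were in VTRNA1-1 alone among the 8, and in 0.582% of 21152 other annotated transcripts of 60 to 400 nt.

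The last 40 bases of the RNase RNAs are set beside those of 2 H/ACA guides (SNORA23 at chr11:9428915-9428954 and SNORA73A at chr1:28507532-28507571, both on the plus strand) to show a feature of that class. Capitals mark ACA at the place 3 bases before the end.
RMRP: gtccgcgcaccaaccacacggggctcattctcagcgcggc
RPPH1: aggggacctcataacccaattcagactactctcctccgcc
SNORA23: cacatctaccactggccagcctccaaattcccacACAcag
SNORA73A: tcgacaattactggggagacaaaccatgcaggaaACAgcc
ACANNN closed 0 of the 8 members, 142 of 213 annotated SNORA transcripts (66.7%), 1.62% of SNORD transcripts and 2.42% of the other transcripts of that length.

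The libraries held 48838756 to 90698675 estimated reads. DKC1, which encodes dyskerin, had 3075 to 3124 normalized counts in siDyskerin, against 20777 to 22716 in siControl, and GAR1 had 83.9 to 115 in siGAR1, against 594 to 664 in siControl. Of the 8 mesenchymal and bone markers, VIM (2288 to 2943 TPM), SPARC and FN1 were high in all 9 libraries, COL1A1, SPP1, ALPL and RUNX2 had 4.39 to 35.6 TPM, and COL1A2 was at 0 to 0.0353 TPM. The 8 took 0.680 to 0.744% of the gene reads in siDyskerin and 0.637 to 0.685% in siGAR1, against 0.734 to 0.813% in siControl, with siGAR1 wholly below siControl. SPP1 was higher in siDyskerin (log2 fold change 1.52, edgeR adjusted p = 1.40e-06) and FN1 lower in siGAR1 (-0.30, 0.00825), both against siControl. The epithelial keratins KRT8 and KRT18 were also present (171 TPM or more). EPCAM, CDH1 and CLDN4 had 1.00 to 2.61 TPM, and KRT19, ESRP1 and GRHL2 were at or near 0 (0.218 TPM or less). KRT8 passed as higher in siDyskerin against siControl (log2 fold change 0.48, edgeR adjusted p = 1.80e-04), and KRT18 did not pass (0.56, 0.0115). The 8 epithelial markers together took 0.116 to 0.118% of the gene reads in siDyskerin and 0.0952 to 0.118% in siGAR1, against 0.0780 to 0.0888% in siControl. The 13 mitochondrial mRNAs, which mark cytoplasm, took 0.0927 ± 0.00685% in siDyskerin and 0.116 ± 0.0101% in siGAR1, against 0.106 ± 0.00741% in siControl (SD, n = 3 each). The part of these marker lists in the results on the 8 RNAs was not tested.

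The 8 RNAs fell into a deeply read and a scarcely read set. The 4 of 264 to 333 nt had 6804 to 212610 reads in every library, and the 4 of 96 to 113 nt had 0 to 20. Together the 8 took 0.614 to 0.745% of all gene reads, nearly all of them from RMRP and 7SL. Of 12 other polymerase III RNAs under 150 nt, including U6, 5S rRNA and vault copies, none had a median of 100 reads. The highest was RNU6ATAC with a median of 56. The listed U6 and 5S copies had 0 reads in every library, and the libraries were depleted of rRNA. BCYRN1, a polymerase III RNA of 200 nt, had a median of 85. RN7SK, the 328 nt RNA that holds the elongation factor P-TEFb, had a median of 296997. The U4 snRNAs RNU4-1 and RNU4-2, of 141 nt, had medians of 1640 and 1913 reads. A median of at least 100 reads was reached by 3 of 9 spliceosomal snRNAs under 150 nt and by 2 of 9 of 150 nt or more. The part of length in the low reads was not tested.

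**Figure D1:**
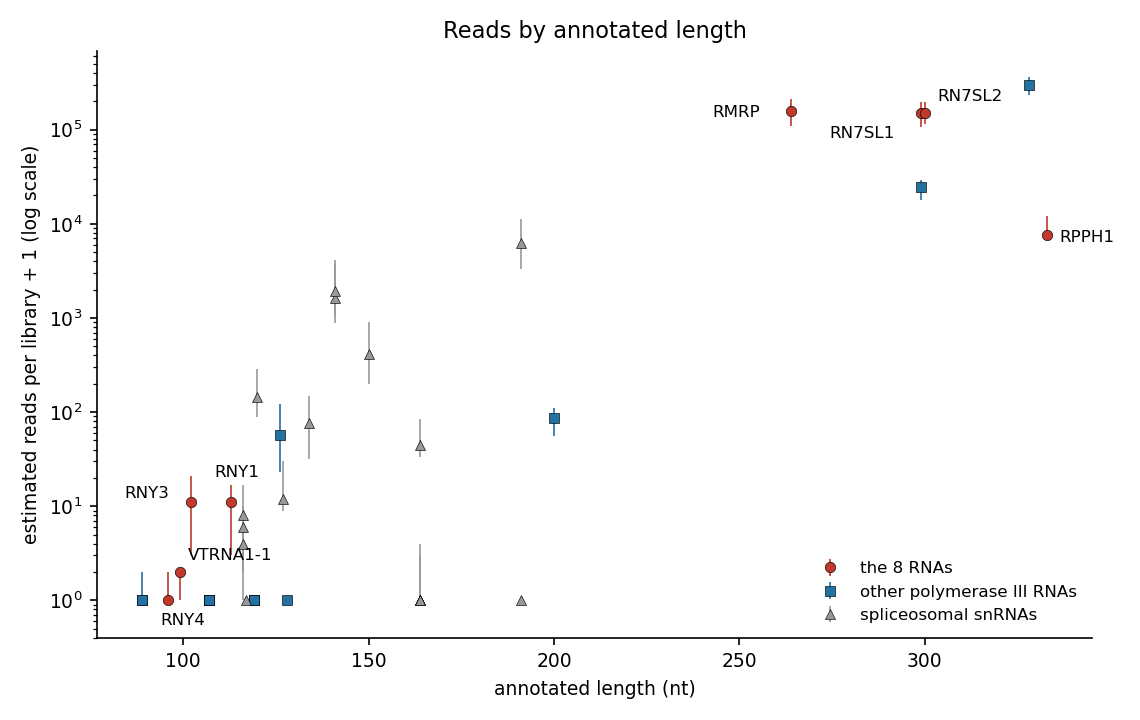
Estimated reads per library plus 1 (log scale) against annotated length in nt, for the 8 RNAs, other polymerase III RNAs and spliceosomal snRNAs. Points are medians over the 9 libraries and lines run from the lowest to the highest library. The 4 members of 264 nt or more lie at 6804 reads and above, and the 4 of 113 nt or less at 20 and below.

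TPM, which divides reads by effective length (the part of a transcript from which a fragment can start), allows levels to be compared between genes. With each gene taken alone, RMRP came first with 17205 to 20299 TPM (median 18768). RN7SL2 followed with 14751 to 19055 TPM (median 16678) and RN7SL1 with 14421 to 17711 TPM (median 16409). These 3 held ranks between 3 and 5 of all genes by TPM in every library. RPPH1 had 765 to 1117 TPM (median 885). Neighbours in this order were not all distinct: RMRP stood above RN7SL2 in 7 of 9 libraries, and RN7SL2 above RN7SL1 in 6 of 9. RPPH1 was below the 7SL copies and above the Y RNAs in 9 of 9. The 2 7SL copies summed had 264352 to 329497 normalized counts, above the 144370 to 168924 of RMRP. Those counts are not divided by length, and the sum may hold a shared read more than once.

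RNY3 (1.87 to 11.4 TPM) and RNY1 (1.32 to 7.51 TPM) overlapped, with RNY3 the higher in 6 of 9 libraries. VTRNA1-1 and RNY4 followed at 0 to 0.979 and 0 to 0.649 TPM. For these short RNAs the TPM scale is coarse. The effective length of VTRNA1-1 was 22.0 to 23.0 bases, so a single read was worth 0.531 to 0.979 TPM, against 0.0906 to 0.172 TPM for a read of RMRP. The order was the same by normalized counts and by reads per annotated base.

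After depletion of dyskerin, none of the 8 RNAs passed the test. RMRP was the only one whose siDyskerin libraries all lay below its siControl libraries, and the difference was 0.93-fold. Of 18444 genes tested, 3.32% passed an adjusted p under 0.01 as lower and 3.08% as higher, and 15.5% had groups that did not overlap in the lower direction and 16.0% in the higher. At an unadjusted p under 0.05, 13.1% were lower and 13.0% higher. DESeq2 passed 6.01% as lower and 5.60% as higher of the 16617 genes to which it gave an adjusted p. Of the 6 members in the fit, 0 passed in edgeR's quasi-likelihood test, 0 had an unadjusted p under 0.05 and 1 (RMRP) had groups apart. DESeq2 gave RNY1 and RNY3 no adjusted p, and 0 of the other members in the fit passed in it. RNY4 and VTRNA1-1 had too few reads to enter the fit. In bulk libraries, fewer cells carrying an RNA and less of it per cell cannot be told apart, and normalized counts are relative to the rest of each library.

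RMRP, the RNase MRP RNA, had 144370, 147684 and 153989 normalized counts in siDyskerin, against 164265, 155138 and 161263 in siControl. The highest siDyskerin library was just below the lowest siControl library. The log2 fold change was -0.11 ± 0.06 (SE) with an edgeR adjusted p of 0.276.

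RPPH1, the RNase P RNA, had 7736, 7989 and 9623 normalized counts in siDyskerin, against 9359, 10362 and 9269 in siControl. Replicate 3 of siDyskerin lay among the siControl libraries and the other siDyskerin libraries lay below them. The log2 fold change was -0.19 ± 0.10 (SE, edgeR adjusted p = 0.226).

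RN7SL1 had 142489, 150750 and 150646 normalized counts in siDyskerin, against 150792, 149972 and 159745 in siControl. RN7SL2 had 142140, 157264 and 178850 normalized counts in siDyskerin, against 153080, 153608 and 167782 in siControl. Both 7SL copies overlapped between the groups, and for RN7SL2 the lowest and the highest of the 6 libraries were both siDyskerin. Their log2 fold changes were -0.05 ± 0.08 and 0.01 ± 0.08 (SE, edgeR adjusted p = 0.753 and 0.954). With the 2 copies summed the log2 fold change was -0.02 ± 0.08 (edgeR adjusted p = 0.910).

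For the 4 long members the 95% intervals of the log2 fold change ran from no lower than -0.40 (RPPH1) to no higher than 0.18 (RN7SL2). The estimates of all 64 SNORA genes tested in the same comparison lay below these intervals, between -2.95 and -0.61 with a median of -1.46, and 39 of them passed as lower. The median was -0.30 for 31 SNORD genes, which guide the other class of rRNA modification, and 0.003 over all genes tested.

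**Figure D2:**
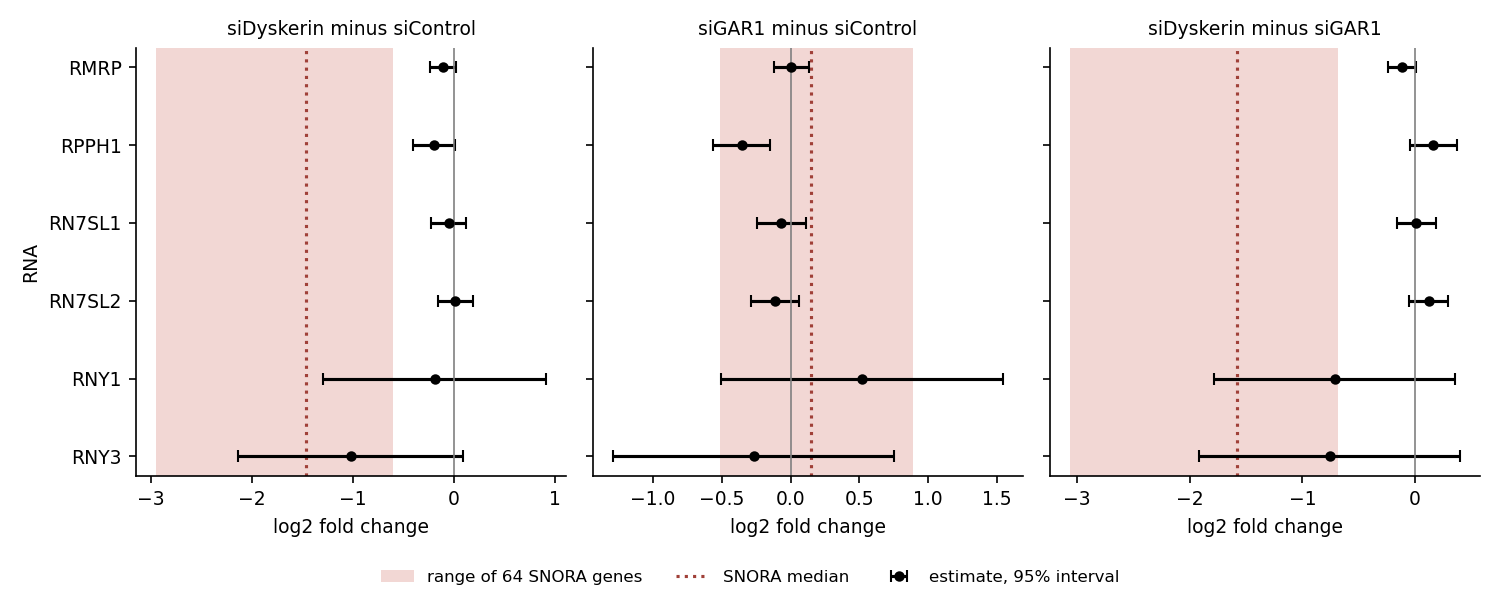
Log2 fold changes of the 6 members in the fit (points) with their 95% intervals (bars), for siDyskerin over siControl (left), siGAR1 over siControl (middle) and the knockdowns against each other, siDyskerin over siGAR1 (right). The shaded band is the range of the 64 SNORA genes tested and the dotted line their median. The intervals of the 4 long RNAs stay right of the band in the left and right panels, and those of RNY1 and RNY3 reach into it.

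The Y RNAs were measured too thinly to place them. RNY3 had 4, 12 and 2 estimated reads in siDyskerin, against 16, 20 and 5 in siControl. RNY1 had 6, 12 and 3 estimated reads in siDyskerin, against 14, 11 and 2 in siControl. Replicate 3 of both groups, from the shallowest library of each, was the lowest for both RNAs. The log2 fold change of RNY3 was -1.02 with a 95% interval of -2.14 to 0.09 (edgeR adjusted p = 0.233), and that of RNY1 was -0.19 with an interval of -1.30 to 0.91 (adjusted p = 0.870). The interval of RNY3 includes the SNORA median. RNY4 had 0 reads in the 3 siDyskerin libraries, against 0, 1 and 0 in siControl, and VTRNA1-1 had 0, 1 and 1 reads in siDyskerin, against 1 in each siControl library.

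After depletion of GAR1, RPPH1 was the member with the smallest p. Its siGAR1 libraries all lay below its siControl libraries, at 0.78-fold, and it missed the threshold in the edgeR test but not in DESeq2. The other 5 RNAs in the fit overlapped between the groups. Both knockdowns were set against the same 3 siControl libraries. Over all genes tested 1.79% passed as lower and 1.63% as higher, and 14.1% had groups apart in the lower direction and 13.6% in the higher. At an unadjusted p under 0.05, 12.2% were lower and 11.8% higher. DESeq2 passed 5.25% as lower and 4.03% as higher of the 14660 genes to which it gave an adjusted p. Of the 6 members, 0 passed in edgeR, 1 (RPPH1) had an unadjusted p under 0.05 and 1 (RPPH1) had groups apart. DESeq2 gave RNY1 and RNY3 no adjusted p, and 1 (RPPH1) of the other members in the fit passed in it.

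RPPH1 had 6736, 7375 and 8547 normalized counts in siGAR1, against 9359, 10362 and 9269 in siControl. The 3 siGAR1 values lay below the 3 siControl values. The log2 fold change was -0.36 ± 0.10 (SE), with a 95% interval of -0.57 to -0.15 and an edgeR adjusted p of 0.0367. DESeq2 gave an adjusted p of 0.00541, and edgeR without the low-count filter gave 1.31e-04. Dropping the filter also raised the genes called in siGAR1 from 52 to 154 (adjusted p under 0.01 and a log2 fold change over 1 in size). The share of all genes passing without it is not given here. Without siGAR1 replicate 1 the log2 fold change was -0.29 (edgeR adjusted p = 0.135). Without any other single library it lay between -0.46 and -0.31 (edgeR adjusted p = 0.0115 to 0.108).

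The lncRNA that contains RPPH1, ENSG00000259001, had 1.27 to 1.30 times as many reads as RPPH1 in every library. It had 8581, 9389 and 11141 normalized counts in siGAR1, against 12130, 13329 and 11990 in siControl, a log2 fold change of -0.36 (edgeR adjusted p = 0.0406). Over the 9 libraries its log2 CPM followed that of RPPH1 with r = 0.999, the closest of 12009 genes compared. The same reads may stand in both, so neither this r nor the equal fold change is a second, separate measurement. Reads of the 2 transcripts cannot be told apart where they overlap, so the RPPH1 values may include RNA that begins or ends outside it. The lncRNA over RN7SL2 had 1 to 20 reads.

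RMRP had 147673, 166101 and 168924 normalized counts in siGAR1, against 164265, 155138 and 161263 in siControl. Its groups overlapped, with a log2 fold change of 0.01 ± 0.06 (SE, edgeR adjusted p = 0.965). RN7SL1 had 125074, 166932 and 147599 normalized counts in siGAR1, with a log2 fold change of -0.07 ± 0.08 against siControl (edgeR adjusted p = 0.670). The siGAR1 group held both the lowest and the highest of the 9 libraries for this copy. RN7SL2 had 139279, 159170 and 140429 normalized counts in siGAR1, with a log2 fold change of -0.11 ± 0.08 (edgeR adjusted p = 0.427). Replicates 1 and 3 lay below all siControl libraries and replicate 2 among them. The summed copies gave -0.09 ± 0.08 (edgeR adjusted p = 0.509).

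RNY1 had 16, 10 and 8 estimated reads in siGAR1 and RNY3 had 14, 10 and 6. Both overlapped siControl. The log2 fold changes were 0.52 (95% interval -0.51 to 1.55) for RNY1 and -0.27 (-1.29 to 0.76) for RNY3. RNY4 and VTRNA1-1 had 0 reads in all 3 siGAR1 libraries, which allows up to 3 reads in each. VTRNA1-1 had 1 read in each siControl library, a difference that is not detectable at this depth.

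**Figure D3:**
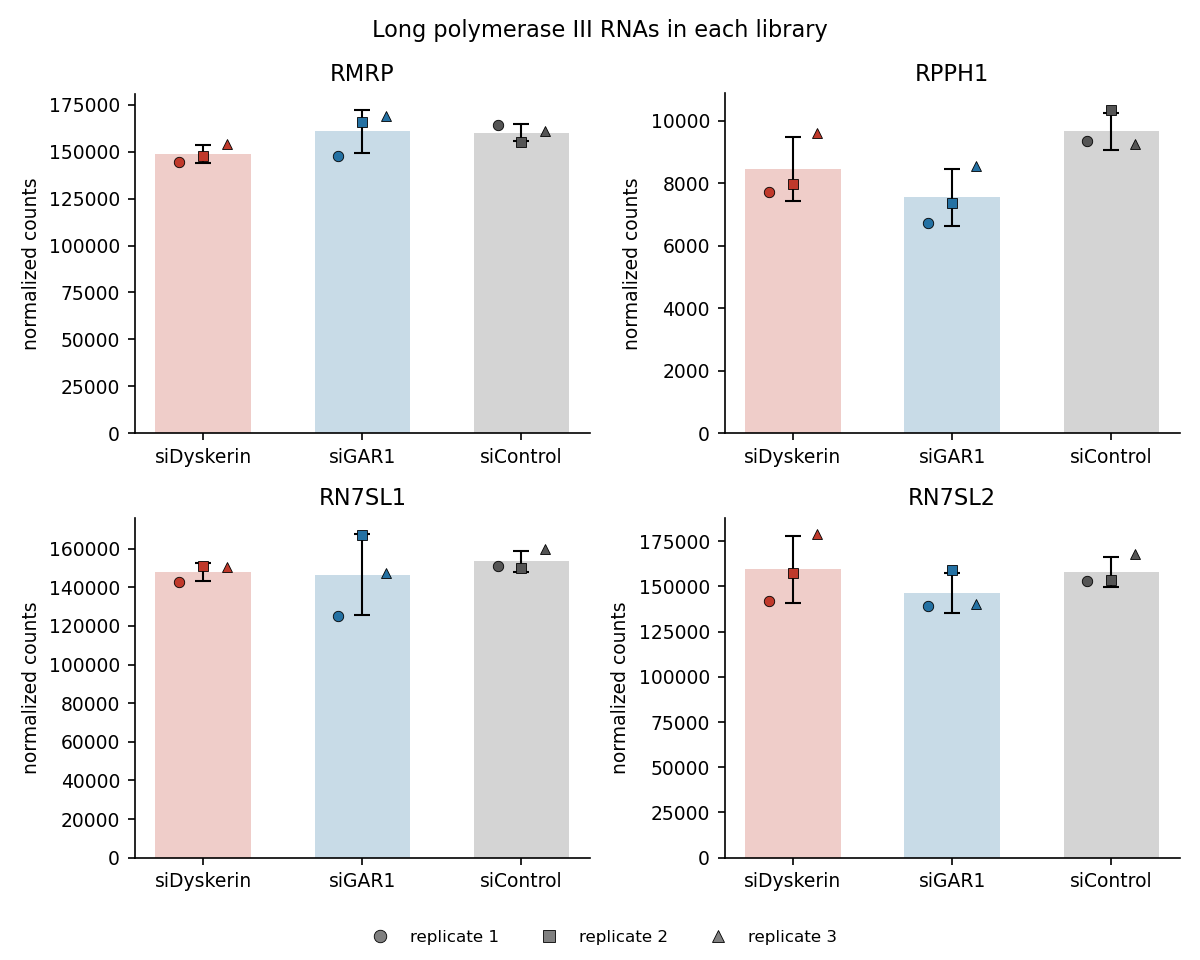
Normalized counts of RMRP, RPPH1, RN7SL1 and RN7SL2 in each library. Bars are means, error bars the SD of 3 libraries, and symbols the replicate numbers. RPPH1 is lower in all 3 siGAR1 libraries (6736 to 8547) than in the 3 siControl libraries (9269 to 10362), and the 7SL copies overlap between all groups.

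With the knockdowns compared directly, none of the 6 members passed in edgeR, none had an unadjusted p under 0.05, and none had groups apart. None passed among those to which DESeq2 gave an adjusted p. Over all genes 2.78% passed as lower in siDyskerin than in siGAR1 and 2.61% as higher, and 14.6% and 15.1% had groups apart in those directions. At an unadjusted p under 0.05, 12.4% were lower and 13.1% higher. DESeq2 passed 5.21% as lower and 6.32% as higher of the 15312 genes to which it gave an adjusted p. The log2 fold change was -0.11 ± 0.06 for RMRP and 0.16 ± 0.10 for RPPH1 (SE, edgeR adjusted p = 0.251 and 0.329). It was 0.01 ± 0.08 for RN7SL1 and 0.12 ± 0.08 for RN7SL2 (adjusted p = 0.942 and 0.370). The lower RPPH1 level in siGAR1 was thus not shown to differ from that in siDyskerin. RNY1 (-0.71, 95% interval -1.78 to 0.36) and RNY3 (-0.76, -1.91 to 0.40) were again too sparse to place.

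The ratio of RPPH1 to RMRP reads, taken within each library, does not depend on how libraries are scaled. It was 0.0536, 0.0541 and 0.0625 in siDyskerin, 0.0456, 0.0444 and 0.0506 in siGAR1 and 0.0570, 0.0668 and 0.0575 in siControl. The siGAR1 ratios were the 3 lowest of the 9. The mean ratio in siGAR1 was 0.776 of that in siControl (two-sided exact permutation p = 0.10, the smallest that 3 against 3 libraries allow, and 0.30 after adjustment over 6 ratio tests). The ratio of RN7SL1 to RN7SL2 reads lay between 0.842 and 1.05 and overlapped between all groups (exact permutation p = 0.50 to 0.70). If reads fitting both copies were counted in each, this ratio would be drawn toward 1 in every library. Its overlap thus cannot show whether the copies changed alike.

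**Figure D4:**
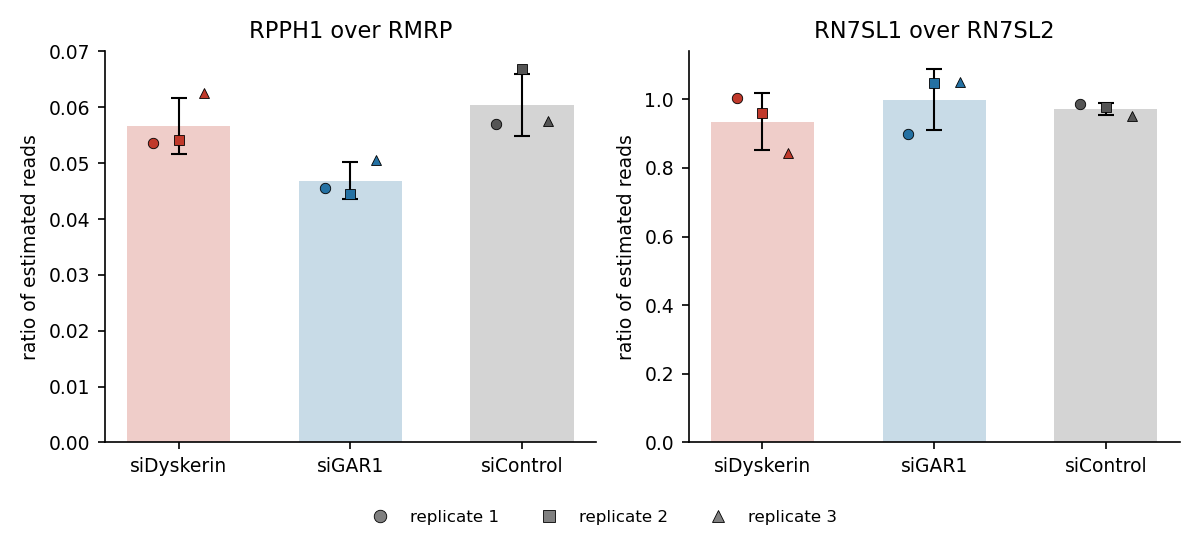
Ratio of estimated reads within each library, RPPH1 over RMRP (left) and RN7SL1 over RN7SL2 (right). Bars are means, error bars the SD of 3 libraries, and symbols the replicate numbers. The siGAR1 ratios of RPPH1 to RMRP (0.0444 to 0.0506) are below those of both other groups. The 7SL ratio stays near 1, where reads fitting both copies may be counted in each.

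The 4 long members varied by more than counting error, which was 0.244 to 1.18% of their level. Between the libraries of a group the coefficient of variation was 2.90 to 7.17% for RMRP, 6.27 to 12.2% for RPPH1, 3.20 to 14.3% for RN7SL1 and 5.27 to 11.6% for RN7SL2. Replicate 1 of siGAR1 was the lowest of its group for RMRP, RPPH1, RN7SL1 and RN7SL2 alike. That library was the highest of all for several short RNAs. RNU4-1 and RNU4-2 (U4 snRNAs), RNU12 (U12 snRNA) and RNU6ATAC, a polymerase III RNA of the minor spliceosome, were 1.16 to 1.25 log2 units above the siControl mean in it. RMRP was 0.12 and RPPH1 0.52 log2 units below that mean, RN7SL1 0.30 and RN7SL2 0.18 below. Replicates 2 and 3 of siGAR1 were also above the siControl mean for those short RNAs, by 0.14 to 0.76 log2 units. All 8 listed snRNAs tested had log2 fold changes above 0 in siGAR1 against siControl (median 0.63). Of them 5 were higher at an unadjusted edgeR p under 0.05 (11.8% of all genes), and 0 passed in edgeR or DESeq2. RNU4-2 passed as lower in siDyskerin than in siGAR1 (-0.92, edgeR adjusted p = 0.00964, 2.78% of all genes). The RN7SL1 log2 fold change after GAR1 depletion was 0.03 without siGAR1 replicate 1 and -0.18 without siGAR1 replicate 2, and passed in neither case.

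**Figure D5:**
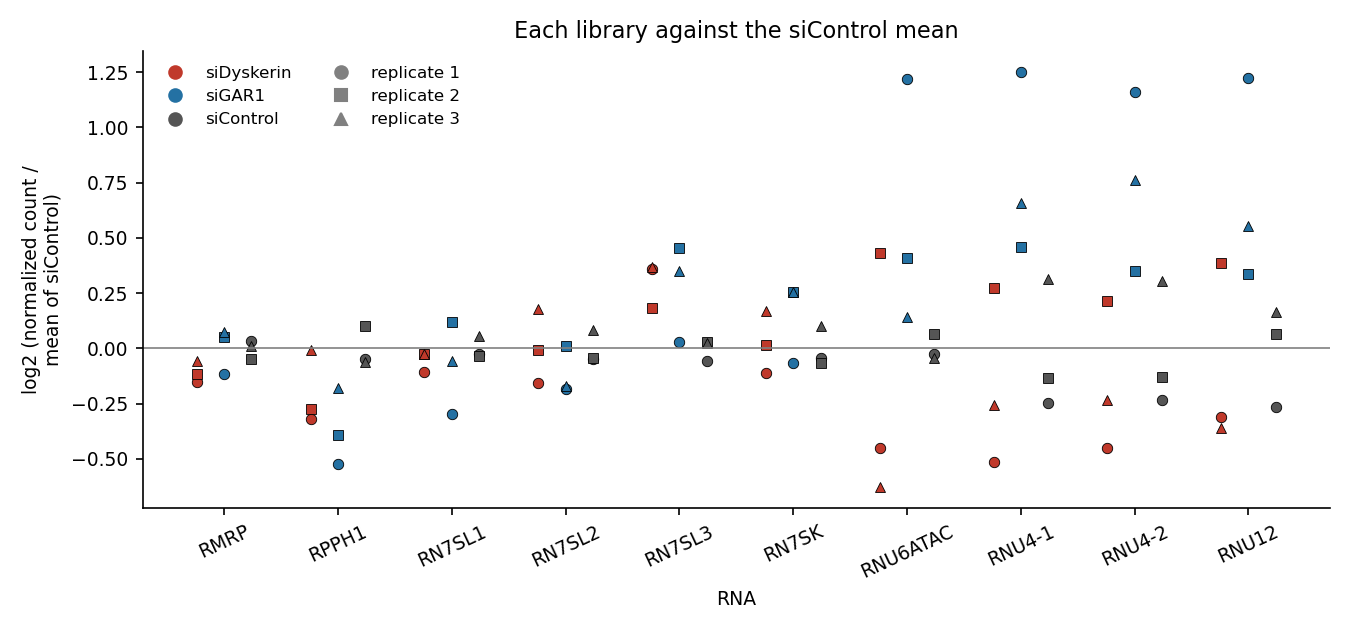
Log2 ratio of the normalized count in each library to the siControl mean, for the 4 long members and for RN7SL3, RN7SK, RNU6ATAC, RNU4-1, RNU4-2 and RNU12. Colours are the groups and symbols the replicate numbers. Replicate 1 of siGAR1 is 1.16 to 1.25 above the mean for the last 4 RNAs and below it for the first 4.

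Correlations over the 9 libraries, which share groups and depth, are given as a description. Among the 4 long members they were 0.15 (RMRP and RN7SL2) to 0.63 (RN7SL1 and RN7SL2). The most similar genes by log2 CPM were STON1 (r = 0.950) and BMP4 (0.921) for RMRP, LAMA2 (0.954) for RPPH1 after its containing lncRNA, RNASEK (0.917) and DHRS4 (0.893) for RN7SL1, and COX10-DT (0.874) and PPP4R4 (0.862) for RN7SL2. For RNY1 (THG1L and ENSG00000260342) and RNY3 (EMC7 and NAA20) the likeness rests on 2 to 20 reads a library.

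Of 16 other polymerase III RNAs listed, 4 were in the fit, and 0 passed in any comparison by edgeR or DESeq2. At an unadjusted p under 0.05, 1 was higher in siDyskerin (13.0% of all genes) and 2 in siGAR1 (11.8%), and none was lower, each against siControl. RN7SL3, another 7SL gene, had 27478, 24313 and 27638 normalized counts in siDyskerin and 21828, 29323 and 27248 in siGAR1, against 20567, 21843 and 21785 in siControl. All siDyskerin libraries were above siControl, and siGAR1 replicate 1 lay among the siControl libraries. The log2 fold changes were 0.31 and 0.29 (edgeR adjusted p = 0.0410 and 0.0687), where those of RN7SL1 were -0.05 and -0.07. Without the low-count filter RN7SL3 passed in both knockdowns (adjusted p = 0.00109 in siDyskerin and 0.00568 in siGAR1). Genes called without that filter rose from 173 to 347 in siDyskerin and from 52 to 154 in siGAR1. With only the 2 groups fitted RN7SL3 passed in siDyskerin (0.31, adjusted p = 0.00609). Without siGAR1 replicate 1 it passed in siGAR1 (0.39, adjusted p = 0.00911). RN7SK had log2 fold changes of 0.03 and 0.16 (edgeR adjusted p = 0.886 and 0.318). RN7SL1 and RN7SL2 held 85.5 to 89.2% of the reads of the 7SL family, whose summed log2 fold change was 0.00 in siDyskerin (edgeR adjusted p = 0.999) and -0.06 in siGAR1 (0.655).

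The lists of protein partners are read against the shares of all genes given above. Of 11 genes of RNase P and RNase MRP proteins, 1 passed as lower (3.32% of all genes) and 0 as higher in siDyskerin, with a median log2 fold change of -0.17. At an unadjusted p under 0.05, 4 were lower and 0 higher in siDyskerin (13.1 and 13.0% of all genes). In siGAR1 0 passed (median -0.08), and 2 were higher and 2 lower at an unadjusted p under 0.05 (11.8 and 12.2% of all genes). DESeq2 gave 3 lower in siDyskerin and 1 lower in siGAR1. The 1 was RPP25L, a paralogue of the RPP25 subunit. It had 414, 448 and 375 normalized counts in siDyskerin and 419, 461 and 439 in siGAR1, against 597, 611 and 570 in siControl. Both knockdowns lay wholly below siControl. Its log2 fold changes were -0.52 (edgeR adjusted p = 0.00295) and -0.43 (0.0146). The siGAR1 value passed in DESeq2 (0.00114) and without the filter (0.00646), where more genes were called (154 against 52). The siDyskerin call was lost without siControl replicate 2 (adjusted p = 0.0145), siDyskerin replicate 1 (0.0112) or siDyskerin replicate 3 (0.0178). RPP14 and POP1, further subunits, had -0.28 and -0.30 in siDyskerin (edgeR adjusted p = 0.0112 and 0.0281), and both passed in DESeq2 (2.78e-04 and 0.00811).

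Of 28 genes of RNA polymerase III and its initiation factors, 2 passed as lower (3.32% of all genes) and 0 as higher in siDyskerin (median -0.04). At an unadjusted p under 0.05, 3 were lower and 1 higher in siDyskerin (13.1 and 13.0% of all genes), and DESeq2 passed 3 as lower (6.01%). In siGAR1 0 passed in edgeR or DESeq2, and 2 were lower and 0 higher at an unadjusted p under 0.05 (12.2 and 11.8% of all genes). GTF3C4, a subunit of TFIIIC, had 1768, 1947 and 1878 normalized counts in siDyskerin and 2576, 2611 and 3155 in siGAR1, against 2555, 2454 and 2517 in siControl. The siDyskerin libraries were below all others. The log2 fold change was -0.43 against siControl (edgeR adjusted p = 0.00360) and -0.58 against siGAR1 (5.96e-04). The call against siControl was lost without any 1 of the siControl replicates or without siDyskerin replicate 1 or 3 (adjusted p = 0.0101 to 0.0163). SNAPC1, a subunit of the complex that binds the upstream promoter element of RMRP, RPPH1 and the Y RNA genes, had 2936, 2990 and 3075 normalized counts in siDyskerin, against 3426, 4182 and 4273 in siControl. The groups did not overlap and the log2 fold change was -0.40 (edgeR adjusted p = 0.00519). That call was lost without siControl replicate 2 or 3 or without any 1 siDyskerin replicate (adjusted p = 0.0174 to 0.0305).

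None of the 8 signal recognition particle genes, the 2 Ro and La genes or the 3 vault protein genes passed in edgeR in either knockdown. In siDyskerin 1, 1 and 0 of them were higher at an unadjusted p under 0.05 (13.0% of all genes). By the same limit 1, 0 and 0 were higher (11.8%) and 0, 0 and 1 lower (12.2%) in siGAR1. In DESeq2 0, 1 and 0 passed in siDyskerin and 1, 0 and 0 in siGAR1. RO60, which binds Y RNAs, was nearest in siDyskerin with 0.33 (adjusted p = 0.0254, DESeq2 0.00606), and SRPRA, a subunit of the particle's receptor, in siGAR1 with 0.34 (adjusted p = 0.0143, DESeq2 8.54e-04). SRPRA also passed without the filter (0.00246), with length offsets (0.00922) and without siGAR1 replicate 3 (0.00319). Genes called in siGAR1 numbered 154, 33 and 55 in those settings, against 52.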

How the data were processed

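Nuclear RNA from 9 U2OS cultures was depleted of rRNA (RiboCop) and made into CORALL total RNA libraries. Per the submitters' processing notes and the study's methods, the authors trimmed reads with Trim Galore 0.6.4, filtered them against rRNA and tRNA with Bowtie2 2.4.1, and quantified transcripts with Salmon 1.2.0 against GENCODE 27 (GRCh38). The filtered reads went to genome alignment, and whether Salmon was also given the filtered reads is not stated in the sources used here. The deposited expected counts, TPM values and effective lengths come from Salmon, per transcript and library. Of the count values above 0, 0.000639% were not whole (tolerance 0.001). Whether reads fitting several near-identical or nested transcripts were divided, counted in each, given to a single transcript or left out is not given in those sources. By identifier, 195887 of 200401 transcripts found 1 of 58425 GENCODE 44 genes. The others held 3.69 to 3.84% of the reads.

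Counts were summed per gene, rounded to whole numbers, filtered with filterByExpr (18444 genes), scaled by TMM factors and fitted over all 9 libraries with edgeR 4.0.16 in R 4.3.3 (robust quasi-likelihood F-test, Benjamini-Hochberg adjustment over all genes tested, threshold 0.01). A normalized count is a count at the average effective library size. Counting intervals and floors (3 reads) cover counting error only. No replicate pair agreed within counting noise. Alternatives were DESeq2 1.42.0, other scaling, no filter, length-scaled counts, length offsets, 2-group fits, a replicate block, leaving out each library, a threshold of 0.05 and summed families. Those for genes outside the 8 were chosen after seeing the data. The 8 RNAs and all lists were chosen with earlier results of these data known. Named beside the 8 are DKC1, GAR1, list genes that passed or were among the 4 smallest p of their list, and the 2 genes most similar to each RNA. Added after the values were seen were ENSG00000282885, ENSG00000292256 and RPS29, which overlap members, and SNORA23 and SNORA73A, shown for their 3′ ends. The markers SPARC, COL1A1, COL1A2, RUNX2, EPCAM, KRT19, ESRP1 and GRHL2 were also added then. Sequences were read from GENCODE 44 and aligned with Biopython 1.88, those of RN7SL1, RN7SL2 and RNY3 are not printed here, and plots drawn with matplotlib 3.10.9.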

Additional observations from a re-analysis of the deposited data

How the results depend on the processing

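None of the 8 RNAs passed in edgeR under any alternative scaling, the 2-group fits, the replicate block or the loss of 1 library (0 to 0 members in each comparison). In siGAR1 against siControl, 1 member (RPPH1) passed in DESeq2, 1 without the low-count filter and 1 at a threshold of 0.05. Genes called, as defined below, also rose in the last 2 settings, from 52 to 154 and 108. The share of all genes passing in those 2 is not given here. The alternatives for genes outside the 8 were chosen after seeing the data. Depth limits the Y RNAs and VTRNA1-1, and the overlap of RPPH1 with a lncRNA and of the 7SL copies with each other limits what their reads stand for.

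Genes called (adjusted p under 0.01 and a log2 fold change over 1 in size) numbered 173 in siDyskerin and 52 in siGAR1 against siControl, and 133 between the knockdowns. Without the filter they were 347, 154 and 282, and at 0.05 they were 296, 108 and 237. In siGAR1 there were 34 with length-scaled counts and 33 with length offsets. Leaving out 1 library gave 127 to 194, 34 to 55 and 81 to 153. The lowest values came without siGAR1 replicate 2 (34) and without siGAR1 replicate 1 (81), and 87 were called between the knockdowns without siDyskerin replicate 1.

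Signs turned only where no value passed, and the cause was not tested. For siDyskerin against siControl, summing family copies gave -0.000245 for RN7SL2 and 0.0591 for RNY1 and for RNY3, and length offsets gave 0.000282 for the summed 7SL copies. For siGAR1 against siControl, RMRP was -0.000076 in DESeq2, -0.0104 without the filter and -0.00309 with length-scaled counts, and RNY3 was 0.41 with family copies summed. Between the knockdowns RN7SL1 was -0.000878 with length offsets. Leaving out 1 library gave, against siControl in siDyskerin, -0.0891 to 0.0817 for RN7SL2, -0.67 to 0.11 for RNY1, -0.0827 to 0.0270 for the summed 7SL copies and -0.0565 to 0.0902 for RN7SK. In siGAR1 it gave -0.0381 to 0.0563 for RMRP, -0.18 to 0.0273 for RN7SL1, -0.55 to 0.0905 for RNY3 and -0.18 to -0.0292 for the summed copies. Between the knockdowns it gave -0.0891 to 0.12 for RN7SL1 and 0.000417 to 0.15 for the summed copies.

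Replicate numbers were not taken to pair the libraries, since the labels name no shared batch and the 9 correlations of same-numbered libraries ran from -0.0724 to 0.104. Replicate 3 was the shallowest library of all 3 groups and had effective lengths of its own (RN7SL1 143 to 144 bases, against 131 to 140 in replicates 1 and 2). Whether these differences mark a shared library batch was not tested. Every library correlated best with its own number only between siDyskerin and siControl (3 of 3). With a replicate block 176, 48 and 128 genes were called in the 3 comparisons, and RPPH1 in siGAR1 was -0.36 (edgeR adjusted p = 0.0144). Of the listed genes outside the 8, SRPRA in siGAR1 passed with the block (0.00743).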
